A study of Drosophila melanogaster with 36 samples.

Results

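Of 17606 genes in the count table, 9 known for their roles in germ cells were followed in brains of wandering third-instar Drosophila melanogaster larvae, where germ cells are absent. They are nos, zpg, bam, bgcn, osk, pgc, ovo, otu and blanks, matched to the table by FlyBase identifier. They were chosen by name, with earlier results of these data known. The messenger RNA was measured in 12 groups of 3 libraries each, 36 in all, from 6 genotypes and both sexes, with larvae raised at 25 °C. Histone H3.2 is made during DNA replication, H3.3 is made throughout the cell cycle, K36R replaces lysine 36 of the histone by arginine, and Set2 is the enzyme that trimethylates that lysine. The genotype with mutant H3.2, H3.3WTH3.2K36R, was set against H3.3WTH3.2HWT, which served as its control. H3.3K36RH3.2HWT, with mutant H3.3, has H3.3CtrlH3.2HWT as its control, and brains of Set21 larvae, mutant for Set2, were set against yw brains. All comparisons were within a sex, and no library entered more than 1 of these pairs. The genotype names are the whole description of the alleles in the labels, so how each histone was supplied is not stated here. Whether replicate libraries came from different animals or from pools is not in the labels, so p-values measure only the spread between these libraries, which may be technical.

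In the fly, germ cells are set apart early by the germ plasm, a cytoplasm at the posterior pole of the egg that osk assembles and in which nos and pgc RNAs are kept. Later, in the ovary, bam and bgcn drive the daughters of germline stem cells into differentiation, while nos holds them back. Many germ cell genes are silent in somatic tissue, and larval brain tumours that lack the chromatin protein L(3)mbt are known for expressing several of them, nos, zpg, bam and bgcn among them.

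Levels are in CPM, the usual depth-scaled read count, computed here with TMM factors, and groups are given as mean ± SD over n = 3 libraries. A library held between 82.5 and 143.8 M reads in genes (median 103.0 M). Both mates of a pair appear to be counted, since between 79.2% and 85.1% of the values from 1 to 4 in a library were even. The tissue label matched the markers: 9 genes of neurons, glia and neuroblasts summed to between 3000 and 3730 CPM in every library. Set2 stood at 28.9 ± 0.904 CPM in Set21 males against 198 ± 2.84 CPM in yw males. His3.3A, an H3.3 gene, was lower in H3.3CtrlH3.2HWT than in H3.3WTH3.2HWT brains (log2 fold change -2.19 ± 0.0425), so that control also departs from the others. In bulk brain RNA, fewer cells of a type and less RNA per cell cannot be told apart.

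Of the 9 genes, 7 passed the filter on low counts and were tested among 12167 genes, and the same 7 pass it in the control libraries alone. The others, osk and pgc, had counts near 0 in every genotype. The tested members are not all free of neighbours: in the Ensembl annotation, nos shares 11.5% of its exonic length with CG11779 on the opposite strand, bam 11.5% with CG11854 and otu 4.7% with CG33181. No source used here gives the strand setting of the counting, so reads in those stretches cannot be assigned with certainty.

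**Figure D1:**
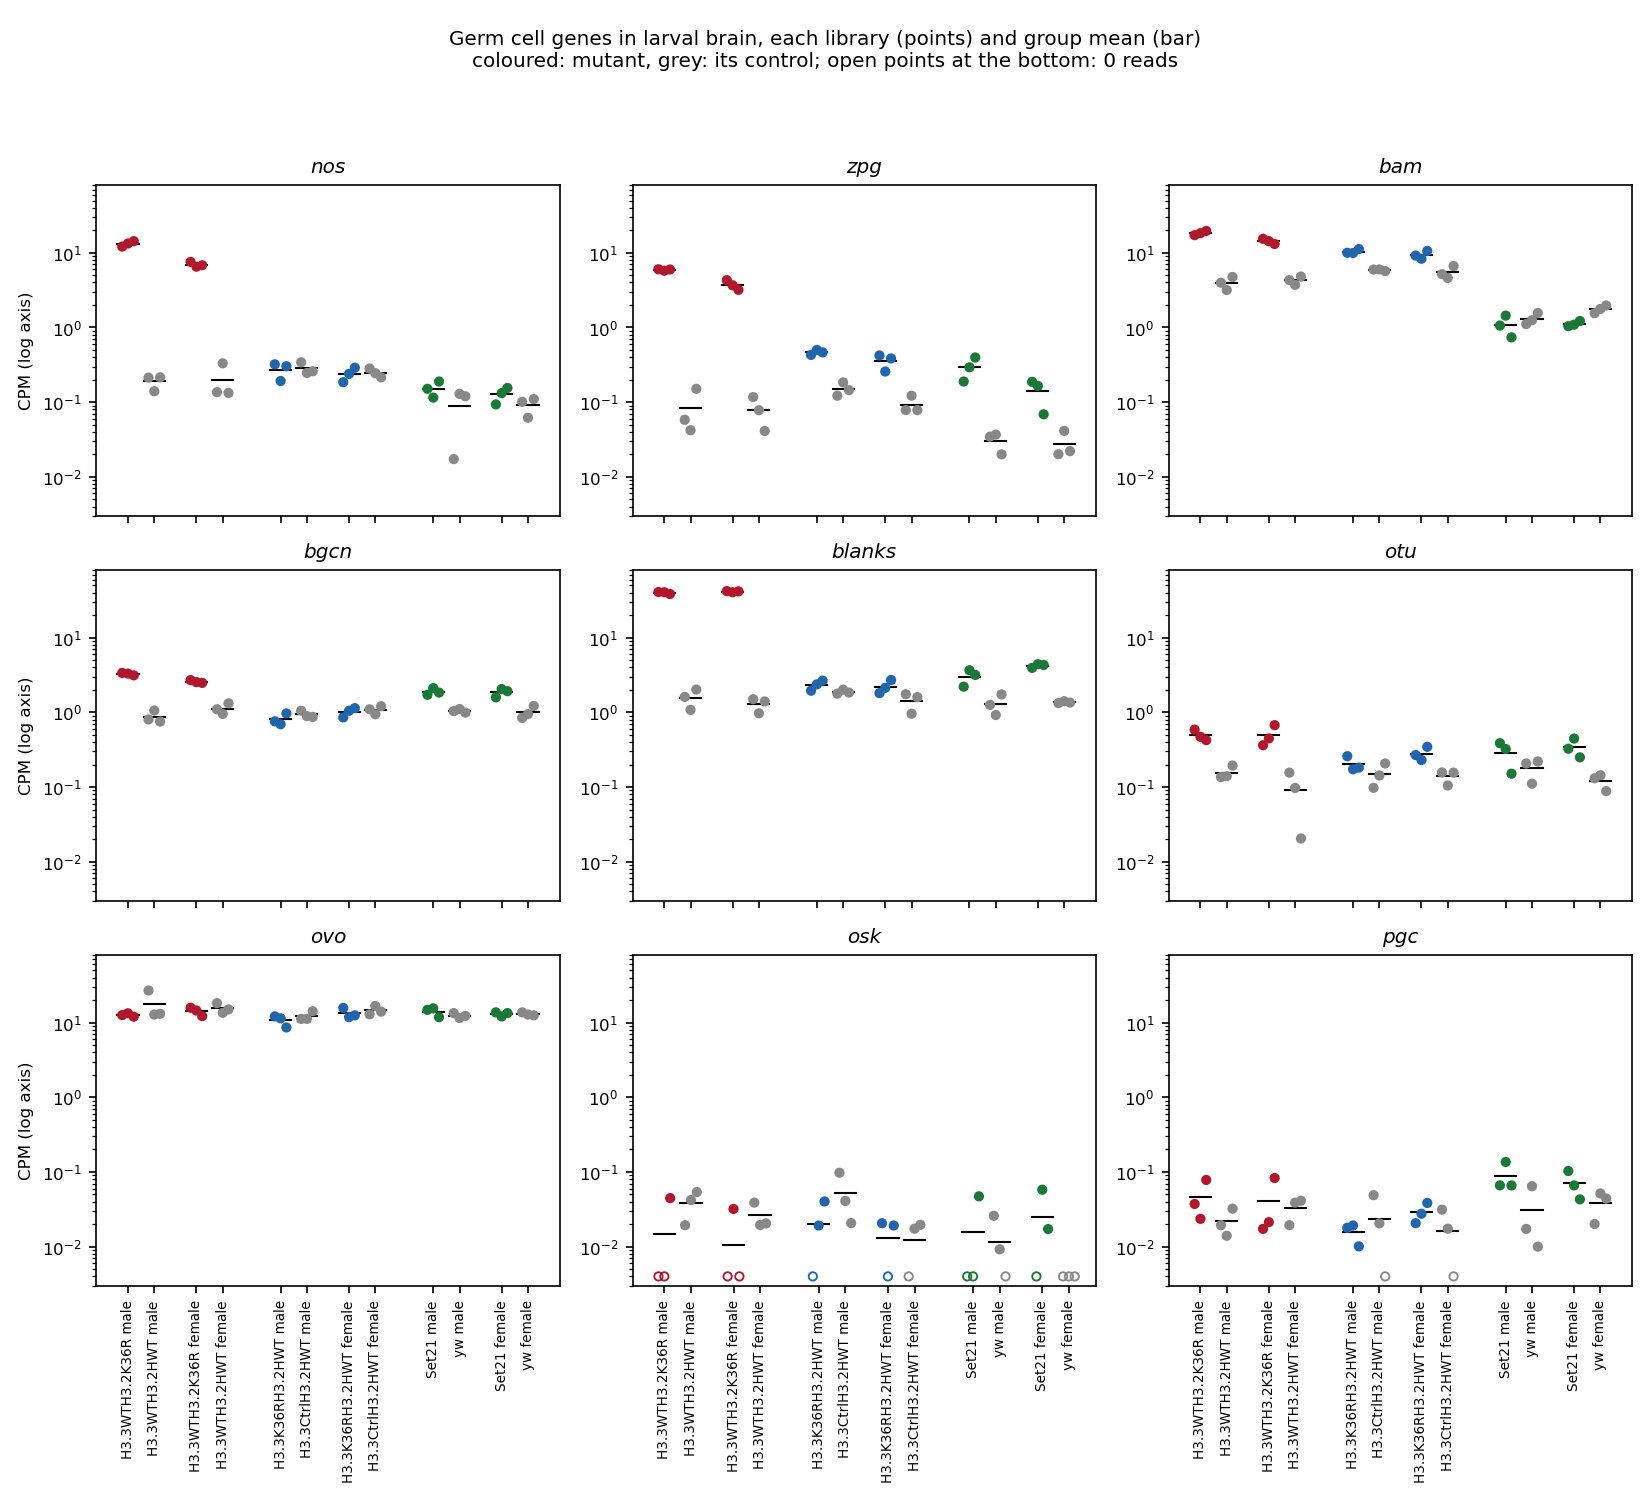
Level in CPM (log axis) of each of the 9 germ cell genes in each library (points) with the group mean (bar); coloured points are mutant libraries, grey points their controls to the right, and open points at the bottom stand for 0 reads. The H3.3WTH3.2K36R libraries of both sexes stand above their controls for 6 of the 9 genes, while osk and pgc lie near the bottom in all 36 libraries.

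Brains of the H3.2 mutant held transcripts of 6 of the 7 tested germ cell genes at levels well above their controls, in both sexes. All but ovo were called higher. That makes 6 of 7 in males, where 25.1% of all tested genes were called in either direction, and the same 6 of 7 in females, where 24.7% were. In each of these genes the mutant libraries lay above the control libraries without overlap, a pattern that 19.4% of all tested genes showed in males and 17.9% in females. The median log2 fold change of the 7 was 2.21 in males and 2.42 in females, against 0.00 for all genes in both. Called higher in both sexes were 7.67% of all tested genes. Since the members were chosen with earlier results of these data known, these shares are a background and not a test of the list.

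The translational repressor nos (FBgn0002962, arm 3R), which works with Pumilio to keep germ cells undifferentiated, had 12.1, 13.3 and 14.3 CPM in the male H3.3WTH3.2K36R libraries against 0.213, 0.14 and 0.215 CPM in the male H3.3WTH3.2HWT libraries. In females it had 7.54, 6.51 and 6.81 CPM in H3.3WTH3.2K36R brains against 0.136, 0.331 and 0.133 CPM in H3.3WTH3.2HWT brains. The control values correspond to 13 to 34 reads per library, and the mutant values to 611 to 1297 reads. No mutant library came near a control library, and the male mutants stood above the female mutants without overlap. The log2 fold change of nos was 6.14 ± 0.348 (SE, adjusted p = 5.2e-14) in males and 5.11 ± 0.336 (adjusted p = 1.6e-12) in females.

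The gap junction gene zpg (FBgn0024177, arm 3L) encodes the innexin through which germ cells couple to the surrounding soma. It had 6.01, 5.75 and 5.97 CPM in male H3.3WTH3.2K36R brains against 0.0581, 0.0421 and 0.151 CPM in male H3.3WTH3.2HWT brains. Female H3.3WTH3.2K36R brains had 4.30, 3.67 and 3.19 CPM, against 0.117, 0.0779 and 0.0411 CPM in female H3.3WTH3.2HWT brains. Control libraries of this pair held only 4 to 14 reads of zpg, and mutant libraries at least 344. Its log2 fold change was 6.19 ± 0.384 in males (adjusted p = 3.6e-13) and 5.54 ± 0.379 in females (adjusted p = 3.4e-12), similar in size to that of nos.

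The double-stranded RNA binding protein gene blanks (FBgn0035608, arm 3L), known from the testis, was the most abundant member in these mutants. It had 40.8, 40.6 and 38.4 CPM in male and 42.0, 40.6 and 41.7 CPM in female H3.3WTH3.2K36R brains. The H3.3WTH3.2HWT brains had 1.61, 1.08 and 2.02 CPM in males and 1.5, 0.973 and 1.40 CPM in females. The sexes overlapped in the mutants, and no control library exceeded 2.02 CPM. Its log2 fold change was 4.69 ± 0.236 in males and 5.0 ± 0.241 in females.

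The differentiation factors bam (FBgn0000158, arm 3R) and bgcn (FBgn0004581, arm 2R), whose proteins act in 1 complex that represses translation, were already present in control brains and rose less. For bam the levels were 17.2, 18.3 and 19.6 CPM in male H3.3WTH3.2K36R brains against 3.97, 3.17 and 4.74 CPM in male H3.3WTH3.2HWT brains. Females had 15.4, 14.3 and 13.1 CPM in H3.3WTH3.2K36R brains against 4.31, 3.72 and 4.80 CPM in H3.3WTH3.2HWT brains. The log2 fold change of bam was 2.21 ± 0.166 in males (adjusted p = 2.5e-11) and 1.74 ± 0.164 in females (adjusted p = 2.8e-09). The bgcn transcript had 3.37, 3.3 and 3.13 CPM in male H3.3WTH3.2K36R brains against 0.804, 1.06 and 0.753 CPM in male H3.3WTH3.2HWT brains. In females it averaged 2.57 ± 0.111 CPM in H3.3WTH3.2K36R brains and 1.13 ± 0.186 CPM in H3.3WTH3.2HWT brains. For both partners the groups were clear of each other, with log2 fold changes for bgcn of 1.90 ± 0.168 in males and 1.19 ± 0.165 in females.

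The ovarian germline gene otu (FBgn0003023, arm X), which encodes a deubiquitinase, rose at a level below 1 CPM. It had 0.587, 0.471 and 0.425 CPM in male H3.3WTH3.2K36R brains against 0.136, 0.14 and 0.194 CPM in male H3.3WTH3.2HWT brains. Females had 0.363, 0.448 and 0.674 CPM in H3.3WTH3.2K36R brains against 0.156, 0.0973 and 0.0205 CPM in H3.3WTH3.2HWT brains. The mutant libraries held 38 to 73 reads and the controls 2 to 20, without overlap. On the log2 scale the fold change was 1.66 ± 0.42 (adjusted p = 0.0038) in males and 2.42 ± 0.443 (adjusted p = 1.5e-04) in females.

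The zinc finger gene ovo (FBgn0003028, arm X) did not follow the others. The same gene gives a germline factor and the epidermal factor Shavenbaby from different transcripts, which counts per gene do not separate. It had 12.6 ± 0.687 CPM in male H3.3WTH3.2K36R brains and 17.6 ± 8.09 CPM in male H3.3WTH3.2HWT brains, where 1 library stood at 26.9 CPM and the other two at 12.8 and 13.1 CPM. That library also had the highest sum of 6 larval fat body markers of all 36, at 503 CPM. The library with ovo at 12.8 CPM had a sum of 359 CPM, and the one at 13.1 CPM a sum of 39.5 CPM. The part of fat body RNA in the ovo value was not tested. The log2 fold change of ovo was -0.48 ± 0.198 (adjusted p = 0.08) in males, and -0.03 ± 0.152 (adjusted p = 0.91) without the library at 26.9 CPM. In females ovo averaged 14.2 ± 1.79 CPM in H3.3WTH3.2K36R brains and 15.6 ± 2.42 CPM in H3.3WTH3.2HWT brains (log2 fold change -0.13 ± 0.198, adjusted p = 0.68).

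**Figure D2:**
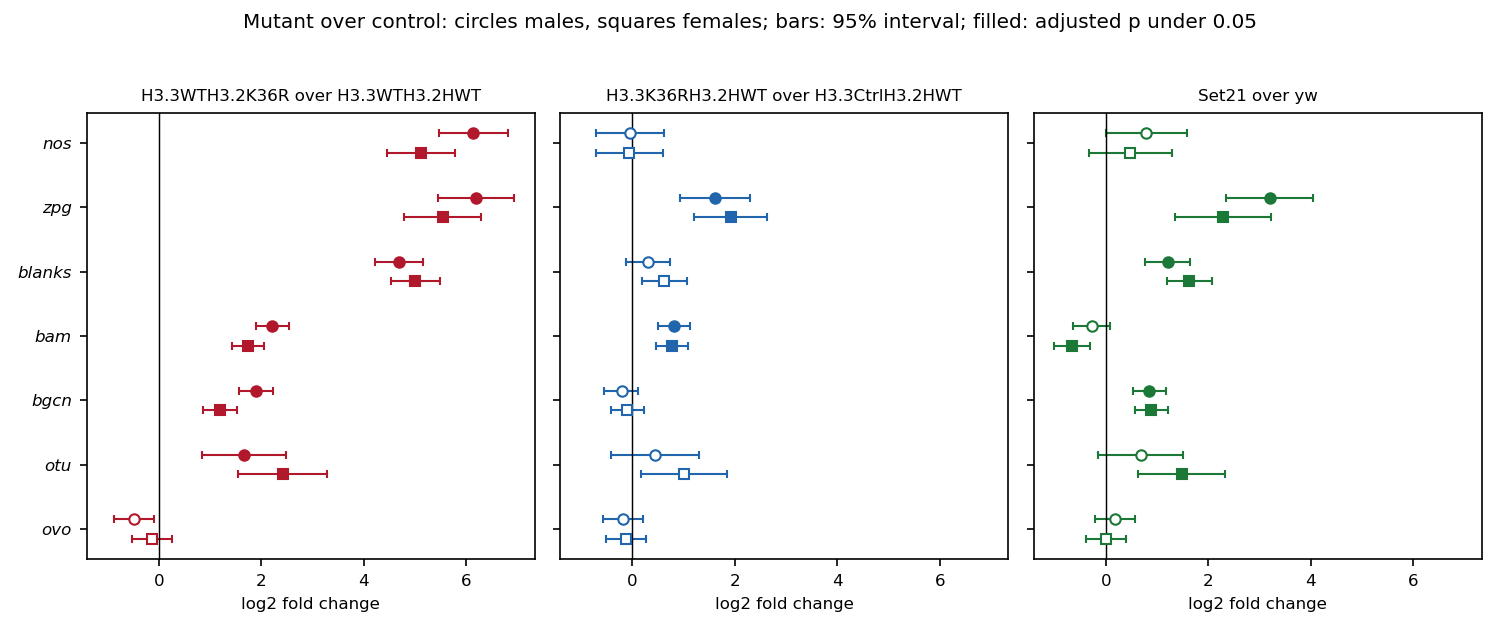
Log2 fold change of the 7 tested germ cell genes in each mutant over its control, males as circles and females as squares, with approximate 95% intervals; filled symbols have an adjusted p under 0.05. The H3.2 mutant reaches 6.19 for zpg in males, the H3.3 mutant at most 1.92 for zpg in females, and the Set2 mutant at most 3.2 for zpg in males.

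The H3.3 mutant showed a narrower change, in zpg and bam alone of the tested members. These were the 2 of 7 called higher in males, where 5.82% of all tested genes were, and the 2 of 7 in females, where 3.40% were. In both sexes together 2.43% of all tested genes were called higher. For zpg the levels were 0.429, 0.50 and 0.464 CPM in male H3.3K36RH3.2HWT brains against 0.122, 0.184 and 0.145 CPM in male H3.3CtrlH3.2HWT brains. Females had 0.422, 0.257 and 0.385 CPM in H3.3K36RH3.2HWT brains against 0.0783, 0.122 and 0.0782 CPM in H3.3CtrlH3.2HWT brains. All mutant libraries were above all controls, though they held only 28 to 52 reads of zpg, against 8 to 18 in controls. The log2 fold change of zpg was 1.61 ± 0.346 (adjusted p = 0.002) in males and 1.92 ± 0.362 (adjusted p = 5.8e-04) in females. Mutant libraries all above their controls were found for 16.6% of all tested genes in males.

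The cystoblast factor bam had 10, 9.93 and 11.2 CPM in male H3.3K36RH3.2HWT brains against 5.96, 5.98 and 5.69 CPM in male H3.3CtrlH3.2HWT brains. In females it had 9.17, 8.32 and 10.6 CPM in H3.3K36RH3.2HWT brains against 5.17, 4.60 and 6.64 CPM in H3.3CtrlH3.2HWT brains. The groups did not overlap in either sex. Its rise on the log2 scale was 0.82 ± 0.161 (adjusted p = 7.4e-04) in males and 0.78 ± 0.16 (adjusted p = 0.0017) in females. Its partner bgcn had 0.807 ± 0.144 CPM in H3.3K36RH3.2HWT males and 0.937 ± 0.0992 CPM in H3.3CtrlH3.2HWT males, with overlapping libraries.

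For nos the H3.3 mutant gave no call, with log2 fold changes of -0.04 in males (95% interval -0.70 to 0.61) and -0.06 in females (-0.71 to 0.60). Those intervals lie far below the change of nos in the H3.2 mutant. In H3.3K36RH3.2HWT females, blanks (2.22 ± 0.457 CPM against 1.44 ± 0.422 CPM in H3.3CtrlH3.2HWT females) and otu (0.281 ± 0.0596 CPM against 0.139 ± 0.0299 CPM in those controls) had mutant libraries above the controls. Neither passed the test (adjusted p = 0.11 for blanks and 0.2 for otu), and 10.1% of all tested genes had that arrangement in females. The median log2 fold change of the 7 members was 0.31 in males and 0.62 in females.

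The Set2 mutant changed another subset of the members. In males 3 of 7 were called higher (zpg, bgcn and blanks), where 22.8% of all tested genes were, and in females 4 of 7 (the same 3 and otu), where 20.8% were. Unlike in the histone mutants, 1 member was lower: bam in females, where 21.4% of all tested genes were called lower. Libraries that did not overlap were found for the same genes, where 26.9% of all tested genes had this with Set21 higher in males, 28.3% in females, and 27.2% with Set21 lower in females.

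Levels of zpg were 0.189, 0.293 and 0.396 CPM in Set21 males against 0.0346, 0.0368 and 0.02 CPM in yw males, and 0.187, 0.165 and 0.0688 CPM in Set21 females against 0.0201, 0.0413 and 0.0221 CPM in yw females. The Set21 libraries were above the yw libraries in both sexes, but the yw libraries held 2 to 4 reads each. For zpg the log2 fold change came to 3.2 ± 0.434 (adjusted p = 5.4e-07) in males and 2.28 ± 0.48 (adjusted p = 3.1e-04) in females. Of the 9 genes, zpg was thus the 1 called higher in all 3 mutants and both sexes, as were 0.493% of all tested genes.

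The testis RNA-binding gene blanks had 2.21, 3.66 and 3.17 CPM in Set21 males against 1.26, 0.921 and 1.74 CPM in yw males. In females it had 3.94, 4.41 and 4.31 CPM in Set21 brains against 1.33, 1.41 and 1.35 CPM in yw brains. All Set21 libraries were above the yw libraries of their sex (males 1.21 ± 0.225 and females 1.63 ± 0.224 on the log2 scale). For bgcn the levels were 1.72, 2.11 and 1.84 CPM in Set21 males against 1.04, 1.11 and 0.992 CPM in yw males, and 1.59, 2.05 and 1.92 CPM in Set21 females against 0.845, 0.949 and 1.22 CPM in yw females. Its log2 fold change was 0.85 ± 0.165 in males and 0.88 ± 0.166 in females, close to each other, and again the libraries did not overlap.

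For bam, the partner of bgcn, the direction was the other way. It had 1.04, 1.09 and 1.22 CPM in Set21 females against 1.55, 1.77 and 1.97 CPM in yw females, without overlap (log2 fold change -0.66 ± 0.179, adjusted p = 0.0039). Set21 males had 1.06, 1.44 and 0.736 CPM against 1.11, 1.25 and 1.56 CPM in yw males, which overlapped (log2 fold change -0.28 ± 0.183, adjusted p = 0.23). The bam difference was not shown to differ between the sexes (0.38 ± 0.256, adjusted p = 0.65). In Set21 females otu had 0.341 ± 0.0991 CPM against 0.121 ± 0.0293 CPM in yw females (log2 fold change 1.48 ± 0.433, adjusted p = 0.0067). Male values of otu overlapped, at 0.287 ± 0.122 CPM in Set21 brains and 0.179 ± 0.06 CPM in yw brains.

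The nos transcript stayed low in the Set2 mutant, at 0.152 ± 0.0368 CPM in Set21 males against 0.0888 ± 0.0621 CPM in yw males, and at 0.127 ± 0.0312 CPM in Set21 females against 0.0909 ± 0.0256 CPM in yw females. Its libraries overlapped in both sexes (adjusted p = 0.11 in males and 0.37 in females). Without the second yw male library, the male log2 fold change was 1.19 ± 0.47 (adjusted p = 0.045), and pgc, which passes the filter in that setting, had 2.59 ± 0.941 (adjusted p = 0.03). That brings the members called in Set21 males to 5, against 3 with all libraries. For ovo the Set21 and yw libraries overlapped in both sexes, with log2 fold changes of 0.18 ± 0.198 in males and 0.01 ± 0.198 in females.

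The 2 germ plasm genes that failed the filter were at the edge of detection in all 36 libraries. The germ plasm organiser osk (FBgn0003015, arm 3R) had 0 to 8 reads per library and 74 in all. It shares 78.5% of its exonic length with a noncoding RNA named for it, on the same strand, which had 0 reads in every library. How reads that fall in both genes were counted is not stated, so osk may be undercounted. The pole cell gene pgc (FBgn0016053, arm 2R), which encodes a small repressor of transcription elongation, had 0 to 13 reads per library and 141 in all. In the H3.2 mutant osk had 4 reads over the 3 male mutant libraries against 13 over the 3 male controls, and 3 against 8 in females. For pgc the mutant had 13 reads against 7 in controls in males, and 13 against 10 in controls in females. By CPM, mutant and control libraries overlapped for osk in all 6 comparisons and for pgc in 5 of them, the exception being Set21 males.

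The highest pgc values were in the Set2 mutant, with 7, 13 and 7 reads in Set21 males against 2, 7 and 1 in yw males, and 11, 8 and 5 in Set21 females against 2, 5 and 4 in yw females. The exons of pgc overlap those of T3dh, on the opposite strand, over 46.9% of their length. T3dh itself had 12.4 ± 1.16 CPM in Set21 males against 5.56 ± 0.172 CPM in yw males, and 13.3 ± 1.41 CPM in Set21 females against 5.18 ± 0.0925 CPM in yw females. How much of the pgc count came from T3dh was not tested. Fitted without the filter on low counts, pgc gave 1.5 ± 0.849 on the log2 scale in Set21 males (adjusted p = 0.2), where its Set21 libraries lay above the yw libraries by CPM (lowest 0.066 against highest 0.0645 CPM) and tied with one of them at 7 reads.

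Differences between the mutants were tested as such, each response averaged over the sexes. The H3.2 response exceeded the H3.3 response for 6 of 7 members, where 12.8% of all tested genes were called higher, with ovo the exception. The difference was 5.67 ± 0.33 for nos (adjusted p = 8.1e-14), 4.38 ± 0.224 for blanks, 4.10 ± 0.365 for zpg, 1.70 ± 0.167 for bgcn, 1.31 ± 0.429 for otu and 1.18 ± 0.16 for bam, all on the log2 scale. The otu difference had an adjusted p of 0.022, and of 0.054 without replicate 3 of the H3.3CtrlH3.2HWT males and 0.05 without replicate 3 of the H3.3WTH3.2K36R females.

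The H3.2 response exceeded the Set2 response for 5 of 7 members, where 19.8% of all tested genes were called higher. The differences were 4.98 ± 0.384 for nos, 3.43 ± 0.223 for blanks, 3.12 ± 0.479 for zpg, 2.44 ± 0.172 for bam and 0.68 ± 0.165 for bgcn (adjusted p = 0.0014). That of otu, 0.96 ± 0.427, missed the threshold (adjusted p = 0.072). Between Set2 and H3.3, the Set2 response was higher for bgcn (1.02 ± 0.167) and blanks (0.95 ± 0.224), where 20.4% of all tested genes were, and lower for bam (-1.27 ± 0.171, adjusted p = 6.9e-07), where 21.9% were. The zpg difference between these mutants was 0.98 ± 0.416 (adjusted p = 0.06), so a difference was not resolved. Without replicate 3 of the Set21 females it was 1.15 (adjusted p = 0.02), and 2 other left-out libraries also gave a call.

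**Figure D3:**
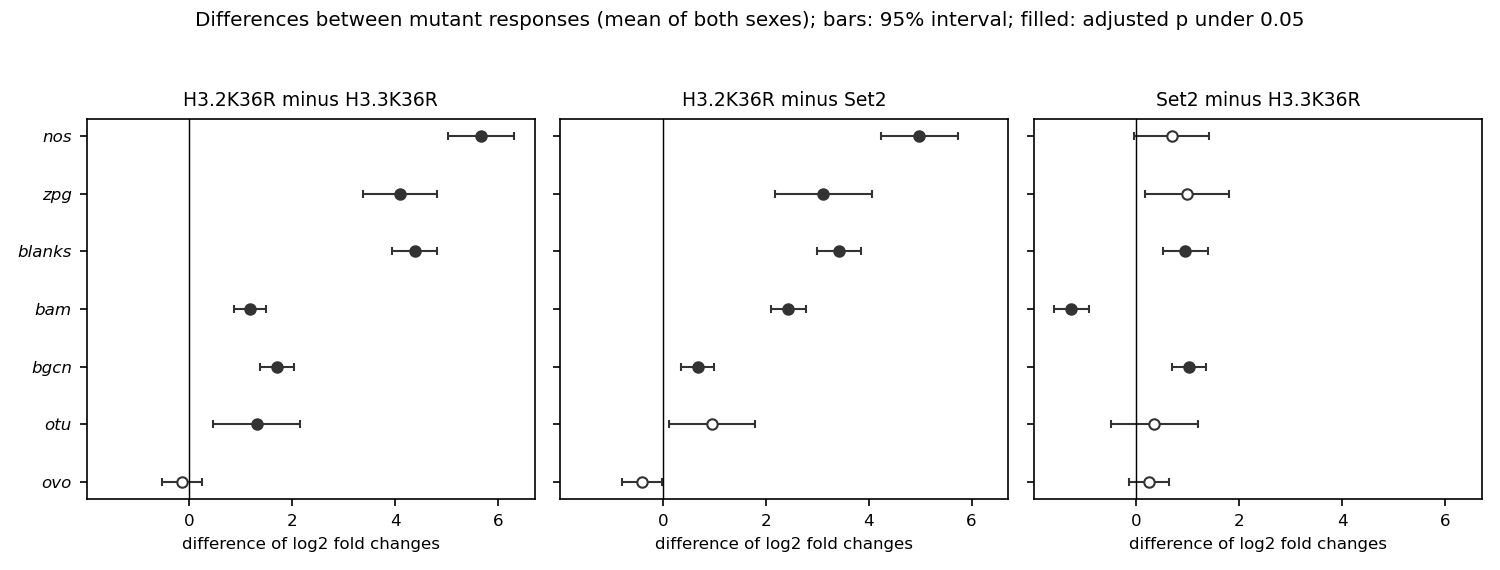
Difference of log2 fold changes between 2 mutants, averaged over both sexes, for the 7 tested germ cell genes, with approximate 95% intervals; filled symbols have an adjusted p under 0.05. The H3.2K36R response is above the H3.3K36R response for every tested gene but ovo, and bam is the gene below 0 in the comparison of Set2 with H3.3K36R (-1.27).

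No member responded differently in the sexes after adjustment over all genes, in any mutant. edgeR and DESeq2 each called 0 of 7, where edgeR called 0.0575% of all tested genes for H3.2K36R, 0.181% for H3.3K36R and 3.41% for Set2. At an unadjusted p under 0.05 in edgeR there were 3 members for H3.2K36R and 0 for the other mutants. Those 3 had larger responses in males: nos by 1.03 ± 0.444 (adjusted p = 0.76), bgcn by 0.71 ± 0.232 (adjusted p = 0.5) and bam by 0.48 ± 0.226 (adjusted p = 0.82) on the log2 scale. The noncoding RNA roX2, made mainly in males, stood at 1.09 to 7.99 CPM in H3.3WTH3.2K36R females and 7.52 to 15.5 CPM in H3.3WTH3.2HWT females, against 26.8 CPM or more in all male libraries. H3.3K36RH3.2HWT females had 2.08 to 10.6 CPM of roX2 and H3.3CtrlH3.2HWT females 1.1 to 4.74 CPM, but no setting chose libraries by roX2 there. In the H3.2 pair, the library with the most roX2 was left out of each female group, a choice made after seeing the data. The same 6 members were then called higher in females, and the male minus female difference of nos was 0.52 (adjusted p = 0.97). The part of roX2-rich libraries in the sex differences was not tested further. In control brains 0 of the 7 differed between males and females in edgeR or DESeq2, and 0 at an unadjusted p under 0.05, where 8.10% of all tested genes were called.

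Control genotypes differed in the levels from which the members started. Against yw, H3.3WTH3.2HWT brains had more bam (log2 fold change 1.44 ± 0.122, adjusted p = 1.0e-10), zpg (1.40 ± 0.359, adjusted p = 0.0026) and nos (1.11 ± 0.279, adjusted p = 0.0021). With ovo (0.38 ± 0.14, adjusted p = 0.032) 4 of 7 were higher, where 19.9% of all tested genes were. Markers of some other tissues were also higher in H3.3WTH3.2HWT than in yw. Called higher were 5 of 5 ring gland genes (median 1.02), 3 of 5 hemocyte genes (median 1.73) and 4 of 8 testis genes (median 0.73). Of 6 fat body genes 1 was higher (median 2.32), and of 5 eye disc genes 1 (median 0.05). Of 8 gonad soma genes 2 were higher and 1 lower (median 0.00). The fat body, eye disc and gonad soma counts are near the 19.9% of all tested genes called higher. Of 9 brain markers 4 were lower. The part of these tissues in the member values was not tested. The ovo call was lost in 8 of 17 alternative settings, among them the fit without the first male H3.3WTH3.2HWT library (0.16 ± 0.101, adjusted p = 0.23). Between H3.3CtrlH3.2HWT and H3.3WTH3.2HWT, bam was higher in the first (0.46 ± 0.115, adjusted p = 0.0064), the only called member, where 5.46% of all tested genes were higher. Levels of bam in the control males were 5.88 ± 0.163 CPM in H3.3CtrlH3.2HWT, 3.96 ± 0.785 CPM in H3.3WTH3.2HWT and 1.31 ± 0.233 CPM in yw. Leaving out 1 library added nos or zpg to the members called higher in H3.3CtrlH3.2HWT.

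Ordered over the 12 groups, nos, zpg, bam and bgcn were each highest in H3.3WTH3.2K36R males and next in H3.3WTH3.2K36R females, with no overlap between those groups or with the group below them. Below those, nos libraries overlapped between every pair of neighbours in the order. For bam the next were the H3.3K36RH3.2HWT groups, then both control genotypes of the histone mutants, and last yw and Set21, whose neighbours overlapped. For bgcn the Set21 groups came next and were clear of the rest. For blanks the H3.3WTH3.2K36R groups overlapped each other and stood far above Set21 females at 4.22 ± 0.251 CPM. Below the H3.2 mutant, zpg came in H3.3K36RH3.2HWT males, H3.3K36RH3.2HWT females and Set21 males, and was lowest in yw. Neighbouring groups of otu, osk and pgc all overlapped. The ovo libraries overlapped between all neighbouring groups, from 17.6 CPM in H3.3WTH3.2HWT males down to 10.7 CPM in H3.3K36RH3.2HWT males.

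Compared per kilobase of exon, the order of the genes themselves differed between mutant and control. In H3.3WTH3.2K36R males blanks led with 31.5 CPM per kb, followed by bam with 9.43, nos with 5.64, zpg with 3.84, ovo with 1.71, bgcn with 0.786 and otu with 0.145 CPM per kb. In H3.3WTH3.2HWT males ovo led with 2.38, followed by bam with 2.04, blanks with 1.24, bgcn with 0.21, nos with 0.0807, zpg with 0.0543 and otu with 0.0458 CPM per kb. On that scale blanks exceeded 80.5% of all tested genes in the mutant and 32.2% in the control, and nos 44.8% in the mutant and 10.8% in the control. For bam the shares were 52.9% in the mutant and 35.7% in the control, and for zpg 40.8% in the mutant and 7.9% in the control.

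Lists of related genes show what moved beside the members. Their counts stand beside the shares of all tested genes called in either direction, which were 25.1% in males and 24.7% in females for H3.2K36R, 9.92% and 6.31% for H3.3K36R, and 44.6% and 42.2% for Set2. The first holds chromatin proteins of the L(3)mbt, LINT and dREAM complexes, known repressors of germline genes in somatic fly cells. Of its 13 tested genes 8 fell in H3.2K36R males and 9 in females, and none rose in either, with medians of -0.13 and -0.14 on the log2 scale, where the median of all tested genes was 0.00 in both sexes. CoRest averaged 203 ± 3.42 CPM in H3.3WTH3.2K36R males and 240 ± 7.0 CPM in H3.3WTH3.2HWT males (log2 fold change -0.24), and HDAC1 averaged 288 ± 3.13 CPM in the mutant males and 338 ± 2.08 CPM in the control males (-0.23). In the H3.3 mutant 1 rose and 1 fell in males, and 1 rose and 2 fell in females. In the Set2 mutant 1 rose and 6 fell in males, and 1 rose and 4 fell in females, with CoRest at -0.35 in males.

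Of 17 tested genes of the germ plasm and of RNA localisation in the oocyte, 6 rose and none fell in H3.2K36R males, and 4 rose and none fell in females, with medians of 0.04 and 0.06. The female count is near the share of all genes called (24.7%). The Piwi protein gene aub had 16.4 ± 0.44 CPM in H3.3WTH3.2K36R males and 6.78 ± 0.859 CPM in H3.3WTH3.2HWT males (log2 fold change 1.28), and the helicase gene vas had 4.86 ± 0.487 CPM in the mutant males and 2.11 ± 0.111 CPM in the control males (1.20). The H3.3 mutant moved 1 up (exu) and 1 down (aub) in males, and 1 up (exu) in females. In the Set2 mutant 5 rose and 2 fell in males, and 3 rose and 3 fell in females, which is near the shares of all genes called there (44.6% in males and 42.2% in females). The dorsoventral signal gene grk had 3.16 ± 0.466 CPM in Set21 males and 0.662 ± 0.0943 CPM in yw males (log2 fold change 2.25), while bru1, a translational repressor, fell (-0.74).

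Among 12 tested partners in germline stem cell differentiation, 4 were up and 3 down in H3.2K36R males, and 3 were up and 2 down in females, with medians of -0.01 and 0.05, where 25.1% and 24.7% of all tested genes were called. Of those named, tut rose most clearly, and its protein joins Bam and Bgcn in a complex in the male germline. It had 7.22 ± 0.604 CPM in H3.3WTH3.2K36R males against 0.473 ± 0.132 CPM in H3.3WTH3.2HWT males (log2 fold change 3.94, adjusted p = 6.3e-11), and in females its log2 fold change was 4.04. The germline gene stil had 147 reads over the 3 female H3.3WTH3.2K36R libraries against 4 in the controls, and it does not pass the filter on low counts in the control libraries alone. Among the 11 that do, 3 were up and 3 down in males, and 2 up and 2 down in females. In the H3.3 mutant tut was the 1 list gene that rose in each sex, by 1.05 in males and 1.48 in females on the log2 scale, and none fell. In the Set2 mutant 2 rose and 6 fell in males, and 1 rose and 6 fell in females. The piRNA pathway gene mael fell in both, with log2 fold changes of -0.78 in H3.2K36R males and -1.18 in Set2 males.

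Of 6 other innexins tested, the relatives of zpg, 3 rose and 2 fell in either sex of the H3.2 mutant, with medians of 0.19 in males and 0.24 in females. Of the 5 that pass the filter in controls alone, which leaves out Inx5, 2 rose and 2 fell in each sex, with medians of -0.06 and -0.03. Inx7 had 1.91 ± 0.163 CPM in H3.3WTH3.2K36R males and 1.03 ± 0.0689 CPM in H3.3WTH3.2HWT males (log2 fold change 0.90), and Inx5 had 66 reads over the 3 male mutant libraries against 0 in the controls. The widely used Inx2 fell slightly (-0.18). In the H3.3 mutant none was called in males and 1 rose in females (Inx7), and in the Set2 mutant 2 rose and 2 fell in males, and 1 rose and 2 fell in females. Among 8 other double-stranded RNA binding proteins, the kin of blanks by domain, 1 was up and 1 down in H3.2K36R males, and 1 was up and 2 down in females, with medians of -0.01 and -0.04, a share close to that of all genes called in males (25.1%). None moved in the H3.3 mutant, and in the Set2 mutant 2 rose and 1 fell in males, and 2 rose and 2 fell in females. Their changes were small, with Dcr-2 at 0.11 in H3.2K36R males and 0.28 in Set2 males.

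Most tested markers of the testis, but not all, rose with the members in the H3.2 mutant, in both sexes. Of 14 listed spermatocyte and sperm genes 8 were tested, of which 6 rose and 1 fell in males, and 5 rose and 1 fell in females. The gene that fell was tomb, with log2 fold changes of -1.33 in males and -1.32 in females. Of all tested genes 25.1% were called in either direction in males and 24.7% in females. Of the 8 testis genes, aly and Mst87F do not pass the filter on low counts in the control libraries alone. Among the 6 that do, 4 rose and 1 fell in each sex, with medians of 0.91 in males and 0.77 in females. All 14 listed genes summed to 28.3 to 30 CPM in H3.3WTH3.2K36R males against 12.2 to 12.7 CPM in H3.3WTH3.2HWT males. In females they summed to 29 to 31.3 CPM in H3.3WTH3.2K36R brains against 12.2 to 12.9 CPM in H3.3WTH3.2HWT brains. Much of the sum was Taf12L, a testis form of a TFIID subunit. It had 15.1 ± 0.711 CPM in H3.3WTH3.2K36R males against 3.57 ± 0.546 CPM in H3.3WTH3.2HWT males. The late sperm genes dj, Mst98Ca and Mst84Dc, and the spermatocyte genes sa and nht, did not exceed 0.168 CPM in any library of the series, and Mst87F and ocn did not exceed 0.336 CPM.

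In the H3.3 mutant the testis sum was 11.5 to 12.1 CPM in H3.3K36RH3.2HWT males against 11.1 to 13.1 CPM in H3.3CtrlH3.2HWT males, with none called. Females had 11.7 to 12.8 CPM in H3.3K36RH3.2HWT against 9.76 to 11.8 CPM in H3.3CtrlH3.2HWT, and 1 testis gene rose (can). In the Set2 mutant 4 testis genes rose in males and 6 in females, or 4 in each sex of the 6 that pass in controls alone. Called higher there were 22.8% of all tested genes in males and 20.8% in females. The testis sums were 13.9 to 15.3 CPM in Set21 males against 8.22 to 9.85 CPM in yw males. Females had 12 to 13.3 CPM in Set21 against 7.88 to 8.15 CPM in yw. Of 8 gonad soma markers none rose in males of any mutant and 4 fell in H3.2K36R males, while 1 rose (fax) and 3 fell in H3.2K36R females. In the H3.3 mutant 2 fell in males and 1 in females, and in the Set2 mutant 4 fell in males and 3 in females. Each of the 8 had at least 1.34 CPM in every library, so they do not separate gonad from brain. Fat body markers varied between libraries of 1 group, with 39.5 to 503 CPM in H3.3WTH3.2HWT males. Of the 6, none was called in the histone mutants and 1 fell in Set21 females. Of 5 hemocyte markers 2 fell in each sex of the H3.2 mutant (PPO1 and PPO2), none was called in the H3.3 mutant, and 1 rose in each sex of the Set2 mutant. Of 5 eye disc markers 2 fell in males and 3 in females of the H3.2 mutant, 1 fell in males of the H3.3 mutant, and 1 rose in females of the Set2 mutant. Of 5 ring gland markers 1 fell in males and 3 in females of the H3.2 mutant, and 3 rose in males of the Set2 mutant. Of the 9 brain markers, the neuroblast genes mira and dpn fell in both sexes of the H3.2 mutant, while wor, another neuroblast gene, was not called and the glial gene moody rose in males (0.38). In the H3.3 mutant 1 brain marker rose in each sex, and in the Set2 mutant 4 fell and 1 rose (moody) in each sex. These marker counts stand against the shares of all tested genes called in either direction. Those were 25.1% in males and 24.7% in females for H3.2K36R, and 9.92% and 6.31% for H3.3K36R. For Set2 they were 44.6% and 42.2%, and the gonad soma counts there are near them. The part of other tissues in the member values was not tested further.

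**Figure D4:**
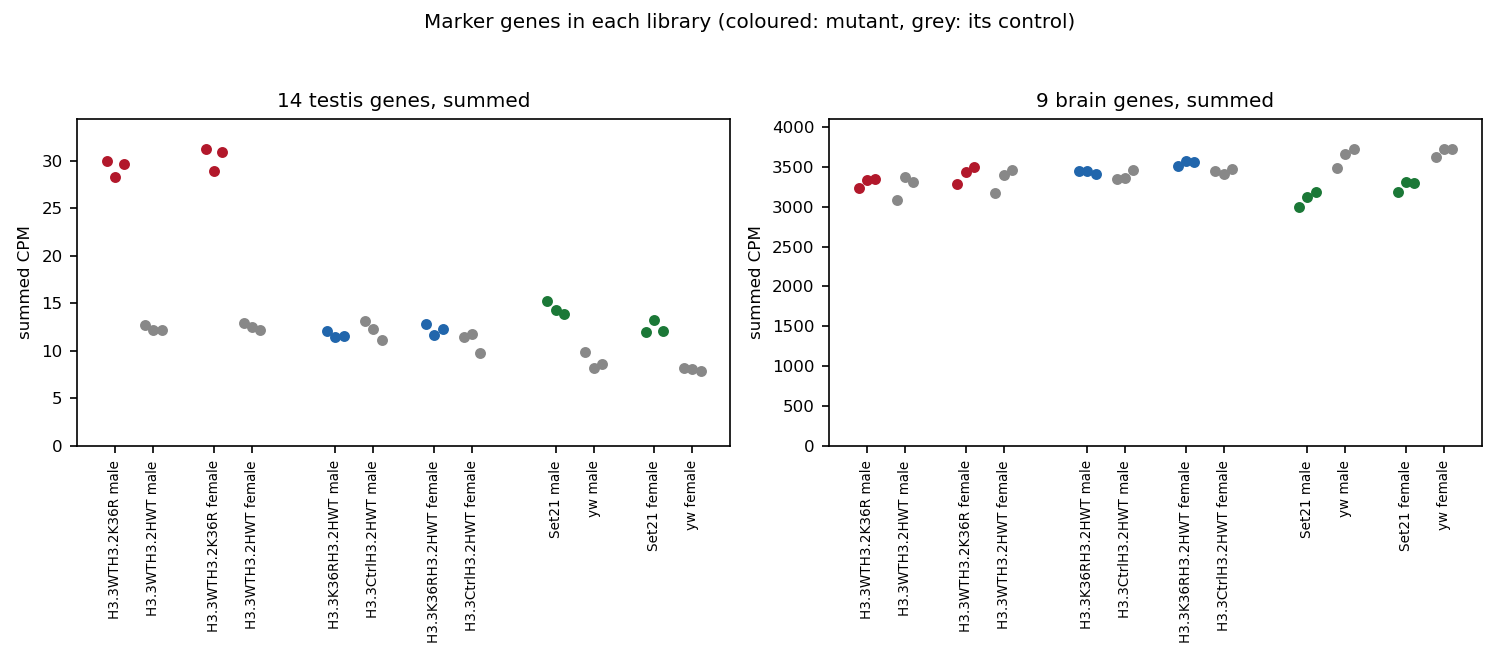
Summed level in CPM of 14 testis marker genes (left) and 9 brain marker genes (right) in each library; coloured points are mutant libraries and grey points their controls to the right. Testis sums in H3.3WTH3.2K36R libraries of both sexes lie between 28.3 and 31.3 CPM, above every other library. Brain sums lie between 3000 and 3730 CPM in all libraries. Those of Set21 males (3000 to 3190 CPM) are below those of yw males (3490 to 3730 CPM). Those of Set21 females (3190 to 3310 CPM) are below those of yw females (3620 to 3730 CPM).

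The genes whose group means followed the members most closely were searched among 5974 named genes, by Pearson r of log2 CPM over the 12 group means, which share libraries and depth. For blanks they were eIF4E3, a cap-binding factor of the testis (r = 0.990), Dhc98D, a dynein heavy chain (0.988), and ord, a cohesion factor of meiosis (0.984). For nos they were ATPsynepsilonL (0.981), Sodq (0.977) and qjt (0.976), and for zpg Oxp (0.972), gNacalpha (0.964) and Dhc98D (0.963). The closest to bam was krimp, of the piRNA pathway (0.971), followed by Sytalpha (0.967) and Boot (0.960). GCC185 (0.949), GstD5 (0.949) and Oseg2 (0.944) were nearest to bgcn, and tw (0.913), Best2 (0.864) and RpL5 (0.808) to ovo. An r does not give the size of a change, and the sizes differed among these genes. GCC185 had 44.2 CPM in H3.3WTH3.2K36R males and 39.0 CPM in H3.3WTH3.2HWT males, and gNacalpha 23.5 and 0.189 CPM.

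Among the members themselves, nos, zpg and blanks had an r of 0.93 for each pair over the group means. For each of these genes both H3.3WTH3.2K36R groups stood far above all others, which weighs on these r. Outside that mutant their calls differed: zpg was higher in the H3.3 and Set2 mutants, blanks in the Set2 mutant, and nos in neither. The complex partners bam and bgcn had an r of 0.18. They rose together in the H3.2 mutant, bam alone was called in the H3.3 mutant, and bgcn rose in the Set2 mutant while bam did not. The r of ovo with the other 6 tested members ran from -0.23 to 0.07.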

How the data were processed

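The authors deposited whole-number counts of reads per gene, 1 column per library, without normalization. Per the labels' protocols, polyA RNA went into KAPA stranded mRNA libraries, read paired-end at 100 bp. STAR 2.7.2a and Subread 2.0.3 are named in the submitters' processing notes, with no settings. No source used here gives the genome build or the strand setting. Symbols, arms and exonic lengths came from Ensembl release 115, which matched 17527 of 17606 identifiers.

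Counts were fitted once over 12 group means in edgeR 4.0.16 (R 4.3.3, limma 3.58.1) with TMM factors of 0.970 to 1.055. Genes passing filterByExpr at a minimum count of 10 were tested by the quasi-likelihood F test, 2-sided, with 24 residual degrees of freedom. The Benjamini-Hochberg adjustment ran over all 12167 genes, called at 0.05. Within groups, library pairs differed by a reduced chi-square of 7.78 to 89.2, so their spread exceeded counting error. The step was tested on simulated data.

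The members and lists were chosen with earlier results of these data known. Beside the members, named genes were up to 4 genes of smallest p per list and comparison among those called, and the 3 genes most like each member. Alternatives were DESeq2 1.42.0, RLE factors, no filter, a replicate block, only the libraries compared, and each library left out. Of the list entries 1, lint-O, was not matched. Sequences of the members were not used here.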

Additional observations from a re-analysis of the deposited data

How the results depend on the processing

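No call reversed its direction. Under the settings run, H3.2K36R had 6 to 7 member calls in males and 6 in females, and H3.3K36R 2 in males and 2 to 3 in females. Of the single-gene values, 1813 kept their side of the threshold, 15 gained a call and 11 lost one; the causes were not tested. Calls were lost for otu in the H3.2K36R minus H3.3K36R difference (adjusted p up to 0.063) and for ovo in H3.3WTH3.2HWT minus yw.

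Gains included ovo in H3.2K36R males, whose call came with DESeq2 (adjusted p = 0.046) or without replicate 2 or 3 of the H3.3WTH3.2HWT males. Others were blanks in H3.3K36R females with DESeq2 (adjusted p = 0.047), and bam in Set2 males without Set21 replicate 2 (-0.52, adjusted p = 0.026).

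Counts moved by more than 1.5 times as follows. Leaving out 1 library at a time, the members called in Set2 males ran from 3 to 5 (5 without yw male replicate 2), and those in H3.3CtrlH3.2HWT minus H3.3WTH3.2HWT from 1 to 2 (2 without H3.3WTH3.2HWT female replicate 2 or male replicate 3). All genes called in H3.3K36R males, 1207 with every library, ran from 738 without H3.3K36RH3.2HWT replicate 2 to 977, with 788 without H3.3CtrlH3.2HWT replicate 2. With only the libraries compared, all genes called in H3.3K36R females were 339 against 768. In that setting 2 members were called in H3.3WTH3.2HWT minus yw against 4, since ovo had an adjusted p of 0.13 and zpg did not pass the filter, as also happened in Set2 females. Without the female library with the most roX2 in the H3.2 mutant and in its control, a choice made after seeing the data, 1822 genes were called in H3.2K36R females against 3003.

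Libraries of the same number in mutant and control did not correlate above 0.1 in all 3 pairs of any comparison, so the numbers were not taken to pair them. H3.2K36R females came near that mark, at 0.412, 0.089 and 0.295. Replicate 1 had the lowest sum of brain markers in each group of the H3.2K36R and Set2 comparisons. The labels do not say whether replicate numbers mark batches. With the replicate block, H3.2K36R males kept 6 member calls and 2865 genes in all, and the H3.2K36R minus H3.3K36R difference had 5 member calls against 6.

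With at most 13 reads per library, osk and pgc failed the filter in the full fit, and without the filter neither was called in any mutant. Without replicate 2 of the yw males, pgc passed it and was called in Set21 males (2.59, adjusted p = 0.03). The folds of nos and zpg rest on controls of 2 to 36 reads.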
